A study of Mus musculus with 16 samples.

Results

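The fibroblastic stromal cells of mineralizing mouse bone marrow stromal cultures were the cells with stromal RNA in which genes of marrow fibroblasts and reticular cells outweighed the genes of the contractile apparatus, and in which genes of mature osteoblasts were low. In marrow, stromal progenitors of this kind surround vessels, secrete the chemokine CXCL12 that holds hematopoietic cells in place, lay down collagen III and periostin, and can enter the osteoblast lineage. EBF1, a transcription factor, keeps marrow reticular cells in their niche state, and pappalysin-1, the product of Pappa, is a protease that frees insulin-like growth factors from their binding proteins. DMP1 is a matrix protein of osteocytes, and FGF23 is the phosphate-lowering hormone that osteocytes release in excess when DMP1 is absent.

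A cell was a member when it had at least 500 genes, under 20% mitochondrial unique molecular identifiers (UMIs, each 1 captured transcript), at least 25 UMIs of Col1a1, Col1a2, Sparc, Tagln and Tpm2 per 10000, under 60 UMIs of Ibsp, Bglap and Bglap2 per 10000, and a sum of Cxcl12, Col3a1, Pappa, Ebf1 and Postn at or above the sum of Tagln, Acta2, Tpm2 and Myl9. Of 17793 cells, 568 were members, 299 of them in 11 tagged cultures and 269 in 4 samples of untagged cells. Among the other cells that passed the filters, 530 met the same stromal and osteoblast limits with the contractile sum on top (contractile cells), 373 exceeded the osteoblast limit (mature cells), and 14376 had a stromal sum under the limit. Because the genes of the rule chose the cells, their levels in members against other stromal cells are description. The limits cut through a continuum: 34 members had a stromal sum of 25 to 30 and 45 cells fell just outside at 20 to 25, and 67 members had a fibroblastic sum under 1.5 times the contractile sum, while 32 contractile cells lay as near on the other side.

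The cultures came from bone marrow of mice aged 12 weeks, were kept for 21 days in osteogenic medium with 10 mM beta-glycerophosphate, a phosphate donor, and were sampled as live cells for droplet single-cell RNA sequencing. WT cultures came from mice with floxed Fgf23 (Fgf23 fl/fl) and no Cre. Fgf23cKO cultures had the same floxed alleles and a Dmp1-cre transgene, which is driven by the Dmp1 promoter and acts mainly in osteocytes and late osteoblasts. Dmp1KO cultures carried null alleles of Dmp1 in every cell, on the floxed background without Cre, and Dmp1KO/Fgf23cKO cultures carried both the Dmp1 null alleles and Fgf23 fl/fl with Dmp1-cre. WT, Fgf23cKO and Dmp1KO/Fgf23cKO had 3 tagged cultures each, and Dmp1KO had 2 (replicates 2 and 3), as the counts of replicate 1 were not used here. Each genotype also had 1 sample of cells from the same pool that carried no usable tag. These are not further cultures and entered no main test. The tagged cultures of a genotype were pooled in 1 droplet reaction. Differences between genotypes and between reactions cannot be told apart, and p-values measure the spread between cultures. The deposited totals ran from 9518928 to 72482185 UMIs per tagged culture. The median cell held 7137 to 7275.5 UMIs in the WT cultures and 20016.5 to 34988 in the others, and the members of a WT culture had a median of 12525 ± 735 UMIs (SD, n = 3) against 72040 ± 23404 in Dmp1KO/Fgf23cKO (n = 3). A gene at 0 in a single WT cell is therefore less firmly absent than in a cell of the other genotypes. The gap was smaller for the summed members of a culture, which held 475636 to 826584 UMIs in WT and 717642 and 1106280 in Dmp1KO.

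The genotype labels were checked on Dmp1 itself. Over all cells, WT held 3530 Dmp1 UMIs and Fgf23cKO 4665, while Dmp1KO held 5 and Dmp1KO/Fgf23cKO 175, at higher total depth. In members, Dmp1KO had 1 Dmp1 UMI and Dmp1KO/Fgf23cKO had 24, all in 1 cell. Fgf23 could not serve as a check, since it gave 0 UMIs in members of every genotype and at most 10 UMIs over all cells of any genotype.

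The label was then set against the data. Fstl1, a secreted glycoprotein of fibroblasts and the marker that the rule did not use, had at least 1 UMI in 69.9% of tagged members, against 56.4% of contractile cells, 52.5% of mature cells and 2.81% of the cells with little stromal RNA. The median depths were 20806, 7051, 43450.5 and 18294 UMIs, so these shares are not compared between the stromal classes. Of 6 endothelial genes, Cdh5 and Tie1 gave 0 UMIs in all 299 tagged members, which allows a share of up to 1.00% of cells with a UMI for each (3 counts). The other 4 were detected, with Kdr making up 40.9% of the list, which summed to 0 to 5.45 CPM in the members of a tagged culture against 2.92 to 7.70 CPM in its cells with little stromal RNA. The 299 tagged members were nevertheless of 3 kinds. In 157 cells, the RNA was that of fibroblastic stroma without much else (median 29276 UMIs per cell, fibroblastic sum 68.1 per 10000). In 91 cells, 8 macrophage genes summed to over 20 per 10000 (median 89.2) at a median depth of only 6067 UMIs, and 15 of these had no UMI of the 5 fibroblastic genes and met the rule with 0 on both sides. The remaining 51 cells carried Schwann-cell RNA, defined as at least 5 UMIs per 10000 and at least 2 UMIs over 4 listed marker genes, Sox10 and Ngfr among them. The marker genes were listed with the design and this limit was set after the data had been seen.

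The members with Schwann-cell RNA went against the label. They were 26 in WT, 23 in Fgf23cKO, 0 of 49 in Dmp1KO (which allows up to 6.12%) and 2 in Dmp1KO/Fgf23cKO. The 3 WT cultures held 5, 6 and 15 of them, which gave 13.1%, 18.1% and 12.5% of the summed member UMIs. In Fgf23cKO they gave 13.3%, 26.4% and 39.5%. Sox10, the transcription factor of neural crest and Schwann cells, had a UMI in 84.3% of them and in 0 of the 157 fibroblastic cells (which allows up to 1.91%). Ngfr, the low-affinity nerve growth factor receptor, summed to 586 CPM (UMIs scaled to a common library total) against 0.909. They met the rule through Postn, which had a UMI in all 51 (2651 CPM against 1784), and through Sparc. They lacked much of the rest of the programme: Fstl1 summed to 13.7 CPM against 692. Runx2, a transcription factor of the osteoblast lineage, was kept, with a UMI in 84.3% of them against 87.3% of the fibroblastic cells. Among WT members alone, Ebf1 was at 3.82 CPM in the Schwann-like cells against 1496 CPM, Cxcl12 at 42.05 against 1198, Col3a1 at 87.9 against 2888, and Alpl, the alkaline phosphatase of mineralizing cells, at 3.82 against 661. Conversely, Acan, the proteoglycan aggrecan, was at 1732 CPM against 0 and Gap43, a growth cone protein, at 1892 against 0. These differences follow from how the cells were split and are description. The shares and the numbers of called genes of each genotype are given below with and without them, because Dmp1KO lacked them.

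**Figure D1:**
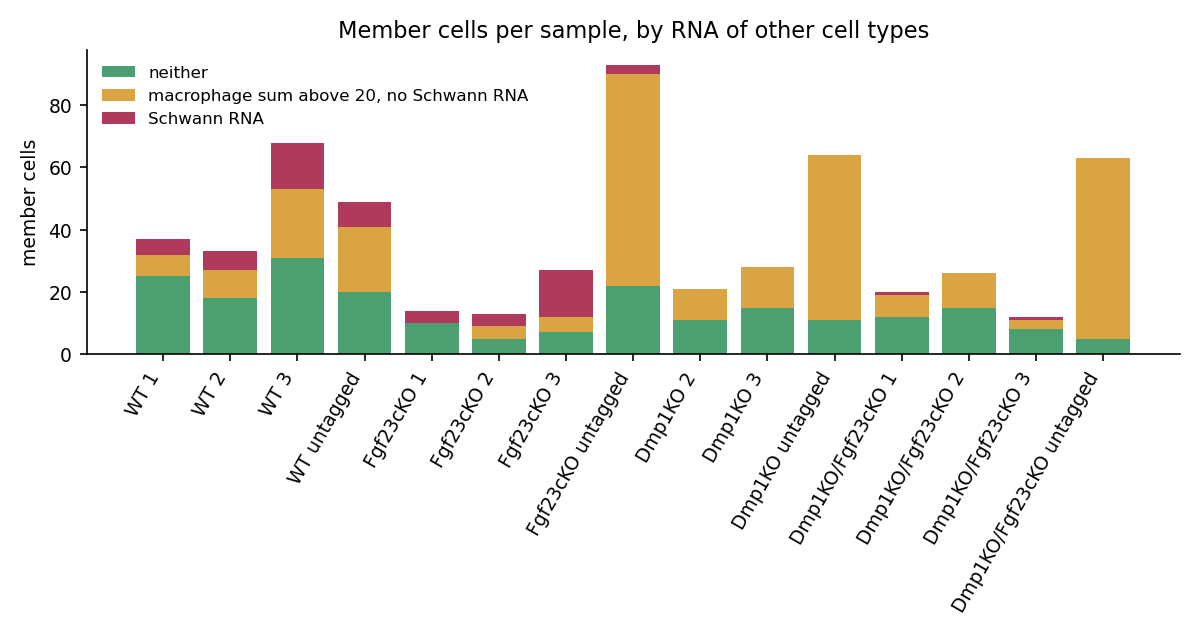
Stacked bars give the number of member cells (y axis) in each tagged culture and each untagged sample (x axis), split by the RNA they carry. Schwann-cell RNA (51 tagged cells) sits almost wholly in WT and Fgf23cKO, and cells with a macrophage sum above 20 per 10000 make up 206 of the 269 untagged members, a count that includes untagged cells with both kinds of RNA.

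Macrophages were the most frequent cells of the cultures. The same 8-gene sum had a median of 15.8 per 10000 in tagged members and 348 in tagged cells with little stromal RNA, so a low level was present in nearly all members. Of the 16 macrophage genes listed, 16 were detected in tagged members, and Lyz2, the lysozyme of macrophages, made up 55.2% of their sum. Summed over the list, members held 4893, 6345 and 6830 CPM in WT, 1782, 1625 and 8973 CPM in Fgf23cKO, 1849 and 3252 CPM in Dmp1KO and 3240, 3421 and 3580 CPM in Dmp1KO/Fgf23cKO. The WT cultures were thus above both groups without Dmp1. The sorting step kept all live cells, so macrophages were not removed. No doublet caller was run, and each comparison is therefore also given without the members with Schwann-cell or macrophage RNA, a setting that kept too few Fgf23cKO cells to be fitted for that genotype. In that setting Dmp1KO/Fgf23cKO replicate 3 had 8 members and dropped out as well, since a sum needed at least 10 cells, and in the setting without macrophage RNA only it had 9 and Fgf23cKO replicate 2 also had 9. Wherever macrophage-rich members are left out below, Dmp1KO/Fgf23cKO thus rests on 2 cultures, as does Fgf23cKO.

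**Figure D2:**
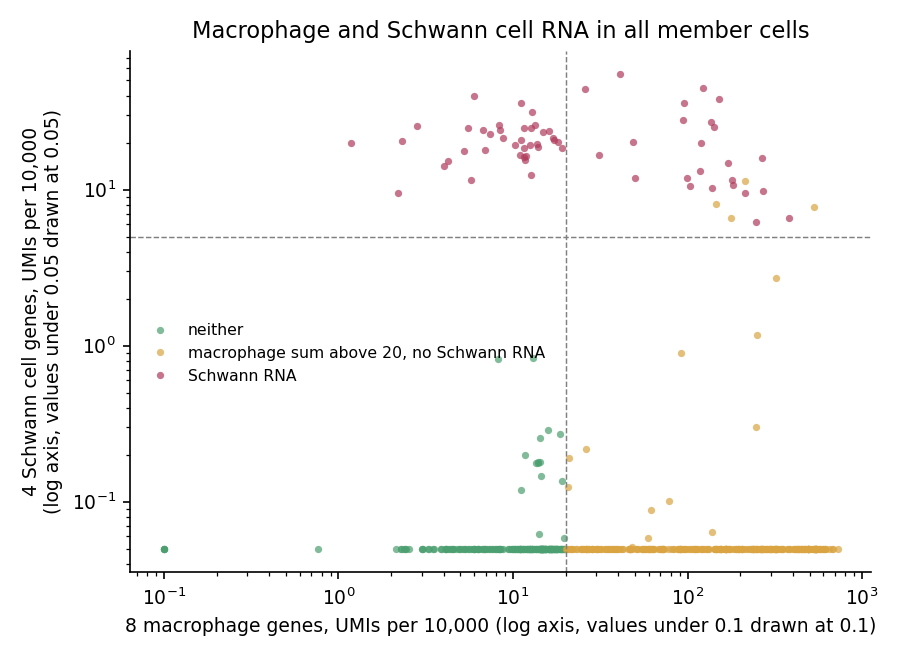
Each point is 1 of the 568 member cells, with its sum of 8 macrophage genes on the x axis and of 4 Schwann-cell genes on the y axis, both in UMIs per 10000 on log axes, with lower values drawn at the edge and the limits of 20 and 5 dashed. The cells with Schwann-cell RNA (51 tagged and 11 untagged) stand above cells that vary along the macrophage axis, and the few other cells above the limit of 5 had under 2 UMIs of these genes.

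Single members varied widely in the genes that define them. In the 138 members with at least 10000 UMIs and neither Schwann-cell nor macrophage RNA, each thinned to 10000 UMIs, Col3a1 was detected in 99.3% (median 17 UMIs), Ebf1 in 94.2% (median 7) and Fstl1 in 92.0% (median 5). Pappa was found in 79.7% (median 6), Postn in 77.5% (median 8) and Cxcl12 in 59.4% (median 1). Cxcl12 was thus the marker found in the fewest of these cells. Its 90th percentile was 40.2 UMIs and its highest value 115, while in many cells no UMI was seen at this depth. Runx2, the transcription factor that opens the osteoblast lineage, had a UMI in 91.3% of these cells (median 8), Alpl in 81.2% (median 5) and Sp7, the factor of committed osteoblast precursors, in 58.7% (median 1). The rank correlation of Ebf1 with Cxcl12 had a median of 0.395 within 8 cultures and was 0.226 over the 138 cells pooled, and that of Ebf1 with Postn was -0.335 and -0.363, given as description since the cells share libraries and a fixed total of UMIs.

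Coordinates are in mm10, with GENCODE M21 gene bounds. Ebf1 lies at chr11:44617317-45008091 on the plus strand, Pappa at chr4:65124174-65357509 on the plus strand, Col3a1 at chr1:45311538-45349706 on the plus strand, Cxcl12 at chr6:117168535-117181367 on the plus strand, Postn at chr3:54361109-54391037 on the plus strand and Fstl1 at chr16:37776873-37836514 on the plus strand. The promoter sequences of Postn, the gene shared by the fibroblastic and the Schwann-like members, and of Cxcl12, of these markers the one found in the fewest deep members, are shown for these contrasting patterns. They are the 250 bases before a RefSeq start in GRCm38.p6, plus strand, chr3:54360857-54361106 and chr6:117168285-117168534, with a TATAAA match in capitals.
Postn: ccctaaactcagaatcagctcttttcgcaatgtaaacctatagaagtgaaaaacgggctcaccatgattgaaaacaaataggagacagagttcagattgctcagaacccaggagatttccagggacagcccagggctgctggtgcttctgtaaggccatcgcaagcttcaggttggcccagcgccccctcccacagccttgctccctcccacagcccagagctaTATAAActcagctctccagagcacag
Cxcl12: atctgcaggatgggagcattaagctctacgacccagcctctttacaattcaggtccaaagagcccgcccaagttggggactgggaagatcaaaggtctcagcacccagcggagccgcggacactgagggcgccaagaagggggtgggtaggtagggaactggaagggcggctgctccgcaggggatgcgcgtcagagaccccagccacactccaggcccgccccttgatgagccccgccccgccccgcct
The letters searched on both strands were TATAAA, found in 12.4% of 32851 RefSeq promoter windows of this length, TGTGGT (RUNX), found in 14%, and TCCC and GGGA with any 2 bases between (EBF), found in 0.779%. The Postn window shown held 1 match, TATAAA at 26 bases before the start, and the Cxcl12 window held none of the 3. The window of another RefSeq start of Postn, chr3:54359017-54359266, also held none. The GC content was 52.0% for the Postn window shown and 64.4% for Cxcl12.

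Against the contractile cells of the same 11 cultures, 226 of 1873 genes with at least 100 CPM in members were higher in members in every culture. At a floor of 10 CPM in either class, 7.03% of 9640.0 genes were higher and 2.62% lower in every culture. Leaving out the genes of the rule, 5 of 17 osteoblast commitment genes with at least 10 CPM (Alpl, Pth1r, Sp7 and Runx2 among them) were higher and 0 lower in every culture, and of 16 niche genes 0 were higher and 1 was lower (Grem1, a BMP antagonist). The genes that the rule did not use include Alpl, at 538 CPM in members against 141 in contractile cells (mean log2 ratio 2.46 ± 1.51, SD over 11 cultures), Dcn, the collagen-binding proteoglycan decorin (3.38 ± 2.33), and Mmp13, the collagenase of osteoblasts and hypertrophic chondrocytes (3.21 ± 2.38). Runx2 was at 738 CPM against 212 (1.79 ± 0.55), Sp7 at 104 against 39.6 (1.46) and Lepr, the leptin receptor that marks adult marrow stroma, at 47.7 against 14.9 (1.68), although not higher in every culture. The largest ratio belonged to Tenm3, a neuronal adhesion protein gene (6.36 ± 3.28), with Gldn (5.36 ± 1.81) also among the leading genes. Tenm3 belonged to the Schwann-like members (2928 CPM in those of WT against 1.72 in the fibroblastic WT members). Fstl1 did not set members apart here (log2 ratio -0.15 ± 0.50). All of these are differences in CPM between classes cut from the same cells and carry no test.

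Against the mature cells of 9 cultures, the order turned. Members held 5158 CPM of Col1a1, the main collagen of bone matrix, against 34105 in mature cells (log2 ratio -2.84), and Ibsp, bone sialoprotein and part of the rule, stood at 723 against 35020. Alpl (560 CPM against 871, -0.72) and Sp7 (-0.73) were also lower in members on average, whereas Runx2 was nearly level (-0.19). Higher in members were Cxcl12 (4.86), a gene of the rule, Fstl1 (3.15 ± 1.41, 644 CPM against 88.6), Pdgfrb, a receptor of perivascular stroma (2.53), and Col4a1 (3.83 ± 1.64) and Col4a2 (3.74 ± 2.05), the basement membrane collagens. Of 9767 genes with at least 10 CPM in either class, 20.9% were higher and 5.19% lower in members in all 9 cultures. Leaving out the genes of the rule, 9 of 15 marrow niche genes with at least 10 CPM were higher in members in all 9 cultures and 0 lower (Lepr, Vcam1 and Kitl among the 9), and of 21 osteoblast commitment genes, 9 were lower and 1 higher in all 9. Members thus lay between contractile cells and mature cells for Alpl and Sp7, as description.

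**Figure D3:**
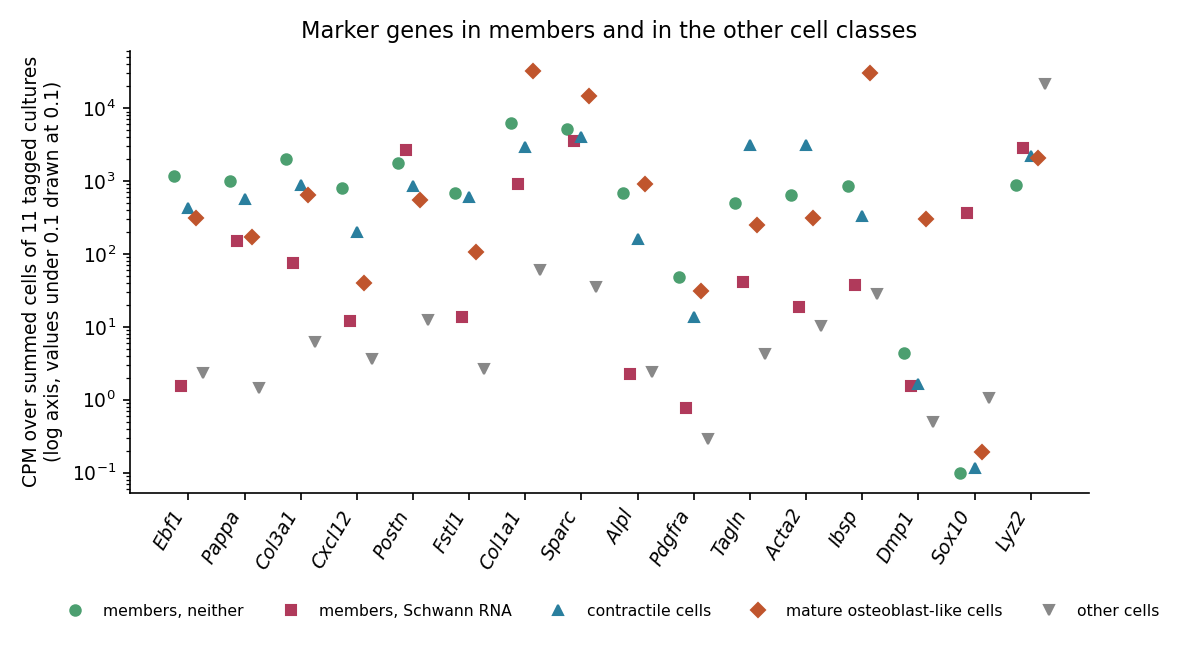
Summed expression in CPM (log axis) of marker genes in tagged cells of 5 classes: fibroblastic members with neither Schwann-cell nor macrophage RNA, members with Schwann-cell RNA, contractile cells, mature cells and the other cells. Postn is high in both kinds of member, while Fstl1 is at 692 CPM in the fibroblastic members and 13.7 CPM in the Schwann-like ones.

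The first question of the design was how many such cells each genotype had. Members were 3.56%, 1.74% and 4.03% of the cells passing the filters in the WT cultures, with exact (Clopper-Pearson) 95% intervals of 2.52 to 4.88, 1.20 to 2.44 and 3.14 to 5.08. In Dmp1KO the shares were 0.773% (0.479 to 1.18) and 1.08% (0.718 to 1.56). Both Dmp1KO cultures therefore lay below all 3 WT cultures. Shares were 3.29%, 3.35% and 5.13% in Fgf23cKO and 2.36%, 3.46% and 2.55% in Dmp1KO/Fgf23cKO, which overlapped WT. The means were 3.11 ± 1.21% in WT, 3.93 ± 1.05% in Fgf23cKO, 0.926 ± 0.217% in Dmp1KO (n = 2) and 2.79 ± 0.584% in Dmp1KO/Fgf23cKO (SD, n = 3 otherwise). An exact two-sided permutation test over cultures gave p = 0.2 for Dmp1KO against WT (difference -2.19 percentage points), p = 0.6 for Fgf23cKO against WT (0.815), p = 0.8 for Dmp1KO/Fgf23cKO against WT (-0.320) and p = 0.1 for Dmp1KO/Fgf23cKO against Dmp1KO (1.87). The smallest p these designs allow is 0.1, so no share could pass 0.05. The intervals cover counting error only, and the share also depends on how many macrophages a culture held.

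As a share of stromal cells alone, the picture was different. Members were 48.2 ± 5.67% of stromal cells in WT, 37.0 ± 12.1% in Fgf23cKO, 32.8 ± 0.813% in Dmp1KO and 23.2 ± 4.005% in Dmp1KO/Fgf23cKO. Here Dmp1KO/Fgf23cKO was the lowest genotype, with a difference of -9.52 points to Dmp1KO, where it had been above it as a share of all cells (exact permutation p = 0.1 both ways). Without the Schwann-like members, the share of all cells was 2.55 ± 0.973% in WT, 2.32 ± 0.0358% in Fgf23cKO, 0.926% in Dmp1KO and 2.68 ± 0.674% in Dmp1KO/Fgf23cKO, so the excess of Fgf23cKO over WT was gone. As a share of the stromal cells left, the values were then 43.3 ± 4.83% in WT, 26.0 ± 4.86% in Fgf23cKO, 32.8 ± 0.813% in Dmp1KO and 22.5 ± 4.26% in Dmp1KO/Fgf23cKO, so that Fgf23cKO lay below Dmp1KO on average where it had been above it, a difference that was not tested.

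The second question was what changed within the members. Counts were summed over the members of each tagged culture, and 10320 genes were tested with edgeR's quasi-likelihood test and Benjamini-Hochberg adjustment over all of them, with a call at an adjusted p under 0.1. All adjusted p-values below are from this test unless another is named, and all levels are CPM on the summed counts of a culture. The 3 comparisons with WT share the WT cultures and are not independent of each other. Fold changes in contractile cells of the same cultures are given beside some genes, with no test, because the reaction is shared by all cells of a genotype. The contractile sums of WT held only 61467 to 243175 UMIs.

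In Dmp1KO members, 550.0 genes were higher (5.33% of those tested) and 670.0 were lower (6.49%) than in WT. The total fell from 1220 to between 603 and 783 when 1 WT culture was left out, and further without either Dmp1KO culture. Without the Schwann-like members, 9792 genes were tested, 412 were higher (4.21%) and 415 lower (4.24%). Without members with Schwann-cell or macrophage RNA, 8723 were tested, 278 were higher (3.19%) and 353 lower (4.05%). Of the genes called in all members, 186 higher and 188 lower ones were called with the same sign in each of these settings and in the one without macrophage RNA only. Of the listed genes, 10 were lower in all 4 settings (Ahnak, Ccl2, Cebpa, Egr1, Etv1, Fstl1, Igfbp5, Pam, Phlda1 and Wif1) and 3 were higher (Btg2, Ccnd1 and Pappa). Pappa is a gene of the rule, so nothing is read from its call.

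Igfbp5, which encodes the main IGF-binding protein of bone matrix and lies at chr1:72857932-72874884 on the minus strand, had the largest fall among the listed genes called in all 4 settings. It was at 1055, 872 and 646 CPM in the WT cultures, 161, 629.7 and 249.6 CPM in Fgf23cKO, 18.2 and 23.5 CPM in Dmp1KO and 246, 117 and 339.7 CPM in Dmp1KO/Fgf23cKO. The Dmp1KO cultures lay far below all others, and the WT cultures above all others. Without the Schwann-like members, the 2 Fgf23cKO cultures that remained were at 43.8 and 44.2 CPM. The log2 fold change of Dmp1KO against WT was -5.33 ± 0.70 (SE, adjusted p = 0.00604) and -6.30 without Schwann-cell or macrophage RNA (adjusted p = 2.3e-04). In contractile cells of the same cultures it was -1.96. Pappa, whose product cleaves this binding protein, was at 485, 317 and 407 CPM in WT and 1452 and 817 CPM in Dmp1KO (1.49 ± 0.34, adjusted p = 0.0282). The rule selects cells on Pappa, so its values are description and are not set against those of Igfbp5. The call of Pappa was kept without Schwann-cell or macrophage RNA (1.00, adjusted p = 0.0503) and lost when Dmp1KO replicate 2 was left out. Igf1, a ligand of the same axis, was at 129, 235 and 238 CPM in WT and 36.5 and 72.4 CPM in Dmp1KO (-1.85, adjusted p = 0.0736). Its direction turned without macrophage-rich members (0.83). Leaving out Pappa, 0 of 13 IGF axis genes tested rose and 3 fell (Igfbp5, Igf1 and Stc2), against 5.33% higher and 6.49% lower of all genes. Without the Schwann-like members 0 of 11 rose and 2 fell, against 4.21% and 4.24%.

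Wif1, a secreted inhibitor of WNT ligands, was at 49.0, 50.5 and 70.5 CPM in WT and 5.62 and 6.58 CPM in Dmp1KO, a log2 fold change of -3.19 ± 0.77 (adjusted p = 0.0332). Ccl2, the chemokine that attracts monocytes, was at 209, 219 and 134 CPM in WT and 26.7 and 8.46 CPM in Dmp1KO (-3.49 ± 0.69, adjusted p = 0.0167). Fstl1 was at 974, 854 and 673 CPM in WT and 397 and 395 CPM in Dmp1KO (-1.07 ± 0.23, adjusted p = 0.0224). None of the 3 genes overlapped between the groups. That was also so for 1144 of the 1220 genes called, counting those with at least 20 CPM in the higher group, so nothing is read from it. The fold changes without Schwann-cell or macrophage RNA were -3.94, -2.85 and -1.54, each still called. With 2 Dmp1KO cultures these calls rested on each of them: those of Wif1 and Fstl1 were lost when either was left out, and that of Ccl2 without replicate 3. Ccl2 was not particular to members. In tagged cells with little stromal RNA it made up 86.8% of the listed niche genes. Their sum there was 811 ± 64.0 CPM in WT and 411 ± 17.3 CPM in Dmp1KO (SD). The part of RNA from those cells in the fall of Ccl2 was not tested.

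Among 21 genes of FGF receptor and ERK signalling, 7 fell and 1 rose, with a median log2 fold change of -1.14 against -0.03 over all genes tested, of which 6.49% were lower and 5.33% higher. Fos and Egr1 also stand in the list of dissociation stress genes, in which 5 of 13 fell (Atf3, Jun, Zfp36, Fos and Egr1) and 1 rose (Btg2, an antiproliferative early-response gene). Without Schwann-cell or macrophage RNA, that stress list had 1 lower (Egr1) and 1 higher (Btg2) of 13, and its part in the result was not tested. Phlda1, an immediate-early gene of growth factor signalling, was at 173, 147 and 132 CPM in WT and 46.3 and 38.5 CPM in Dmp1KO (-1.83 ± 0.38, adjusted p = 0.02). The transcription factor gene Etv1, a target of ERK, was at 30.9, 33.6 and 45.4 CPM in WT and 5.62 and 11.3 CPM in Dmp1KO (-2.06, adjusted p = 0.0595). Egr1, a factor induced within minutes of stimulation, was at 351, 238 and 188 CPM in WT and 136 and 56.4 CPM in Dmp1KO (-1.45, adjusted p = 0.075). These 3 genes stayed called without Schwann-cell or macrophage RNA (-2.07, -3.29 and -1.76). The feedback inhibitors Dusp6 (-1.71, adjusted p = 0.0763) and Spry2 (-2.81, adjusted p = 0.0329) were also called, but Dusp6 was -0.15 (adjusted p = 0.928) without Schwann-cell or macrophage RNA, and Spry2 had an adjusted p of 0.144 without the Schwann-like cells. Fgf2, a ligand, fell in Dmp1KO (-1.98, adjusted p = 0.00832) and also lost its call without the Schwann-like cells (adjusted p = 0.122). The gene that rose was Ccnd1, the cyclin of early cell cycle entry (338, 284 and 315 CPM in WT, 440.8 and 640.2 CPM in Dmp1KO, 0.79, adjusted p = 0.0362), which rose by a similar amount in contractile cells (1.04). No gene of the 10 tested cell cycle genes was called. Without Schwann-cell or macrophage RNA the FGF receptor and ERK list counted 4 lower and 1 higher of 18, with a median of -0.43. Of all genes in that setting, 4.05% were lower and 3.19% higher.

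The niche genes formed a further list. Cxcl12 was at 1480.3, 1053 and 534 CPM in WT and 218 and 304 CPM in Dmp1KO, a log2 fold change of -1.97 that did not pass (adjusted p = 0.36). It passed without macrophage-rich members (-2.40, adjusted p = 0.049) and without both kinds (-2.61, adjusted p = 0.00153), and was -3.51 in contractile cells. Cxcl12 is a gene of the rule that also sets the contractile class, so nothing is read from these calls. Ebf1 (-0.51, adjusted p = 0.288), Postn and Col3a1 were not called in any of the 4 comparisons in all members. Nes, the intermediate filament nestin, fell in all members (-3.62, adjusted p = 0.021) but not without the Schwann-like cells (-0.76, adjusted p = 0.748). Of 18 niche genes, 2 fell (Nes and Ccl2) and 0 rose, against 6.49% lower over all genes. Without Schwann-cell or macrophage RNA, and leaving out the genes of the rule, 4 of 14 fell (Vcam1, Hp, Ccl2 and Foxc1) and 0 rose, against 4.05% lower over all genes.

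Of 25 osteoblast commitment genes, 2 rose (Col11a1 and Sparc, the latter a gene of the rule) and 0 fell, and of 33 matrix genes 3 rose (Col6a3, Col5a1 and Thbs2) and 2 fell (Nid1 and Fstl1), to be read against the 5.33% and 6.49% of all genes. Without Schwann-cell or macrophage RNA the matrix list had 1 higher (Fbln2) and 3 lower (Sulf1, Ogn and Fstl1) of 33, against 3.19% and 4.05% of all genes. The 3 rises thus lost their calls, and the median of the list went from 0.34 to -0.09. Sparc, the matrix glycoprotein osteonectin, was at 2385, 2266 and 3197 CPM in WT and 4482 and 4414 CPM in Dmp1KO (0.77, adjusted p = 0.0896), a call that was lost in each setting without the other RNA. Of 7 osteoprogenitor genes that the study chose on these samples, and which are thus no independent evidence, 4 fell. They were Pam (-0.97), Ahnak (-0.75), Lamp1 (-0.71) and Cat (-1.42). Pam, an enzyme that amidates peptides, and Ahnak, a large scaffold protein, stayed called without Schwann-cell or macrophage RNA, whereas Lamp1 (adjusted p = 0.106) and Cat (adjusted p = 0.87) did not. The adipocyte list had 4 of 13 lower, of which Cd36 and Apoe, also made by macrophages, were positive without macrophage-rich members (0.95 and 0.52). Of 15 macrophage genes tested, 2 fell (Mrc1 and Adgre1) and 0 rose in all members. Without the macrophage-rich members, 8 of 13 were called higher and 0 lower, against 3.67% and 4.79% of all genes, which is description, because a sum of macrophage genes chose those cells. None of the 15 contractile, 4 pericyte, 4 osteoclast and 3 mature osteocyte genes tested was called in all members.

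Among the genes with the largest changes whose cultures did not overlap and whose higher group had at least 20 CPM, Kif26b, a kinesin-family gene of mesenchyme, rose from 54.7 ± 26.1 to 401 ± 110.5 CPM (2.90 ± 0.35, adjusted p = 0.00358) and kept its call under every alternative run. Pcolce2, an enhancer of procollagen processing, rose from 2.99 ± 1.78 to 24.9 ± 11.4 CPM (2.92 ± 0.53, adjusted p = 0.0144). The top gene by size, Ndufa4l2, a mitochondrial complex subunit induced by hypoxia, rose from 0.840 ± 1.45 to 40.8 ± 6.10 CPM (adjusted p = 0.0595), with 2 UMIs in all WT members together, and lost its call whenever 1 culture of either group was left out. The protease genes Gzmd and Mcpt8, known from lymphocytes and basophils, were also among the top 10, Gzmd at 268 ± 302 CPM with most of it in 1 of the Dmp1KO cultures. The other genes on this side were Alkal1, Snorc, Ccbe1, Apcdd1 and Apba2. Of these, Apcdd1 stayed called without Schwann-cell or macrophage RNA (adjusted p = 0.0767). Not called in that setting were Alkal1 (adjusted p = 0.114), Snorc (adjusted p = 0.515), Ccbe1 (adjusted p = 0.15) and Apba2 (adjusted p = 0.119). Several of these rises were also seen outside the members, with no test. Log2 fold changes in contractile cells were 1.88 for Kif26b, 2.66 for Pcolce2, 7.15 for Ndufa4l2 and 3.30 for Gzmd. Alkal1 (-0.95) and Ccbe1 (-0.75) went the other way there. In cells with little stromal RNA, Kif26b was at 4.14. Of the 10 largest falls, 9 were genes that the Schwann-like WT members held at 554 CPM or more and the fibroblastic WT members at 1.72 CPM or less. Among them were Xkr4 (at least 207-fold lower), Gap43 (at least 164-fold), Acan (at least 149-fold) and Cdh19 (at least 113-fold), with Dmp1KO at 0 and the bound set at 3 counts over the group. The exception was Saa3, an acute-phase gene, at 158, 191 and 8.82 CPM in WT and 0 in Dmp1KO (at least 60.7-fold lower), which was also called without the Schwann-like cells.

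**Figure D4:**
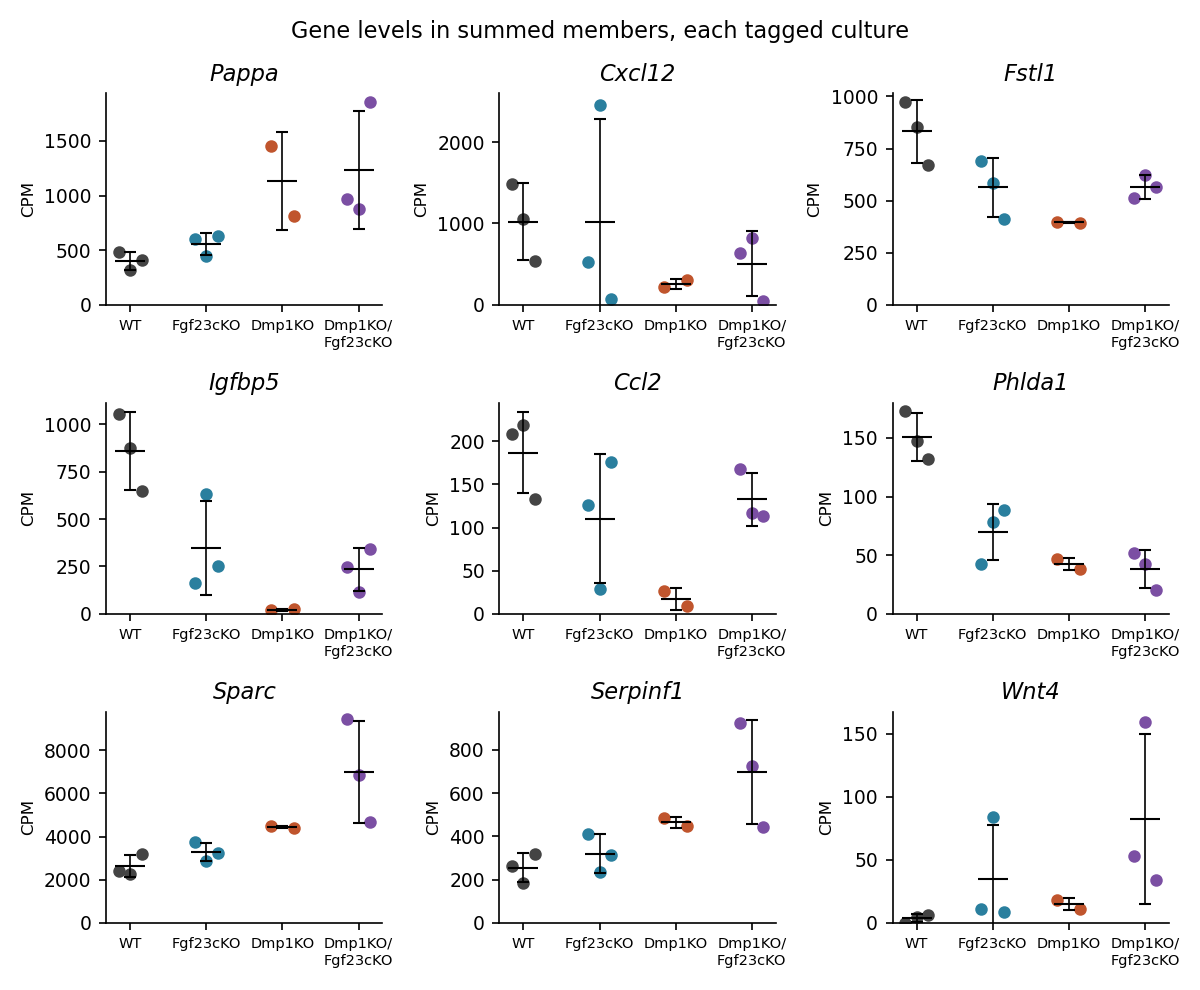
Expression in members (CPM, y axes) of 9 genes, 1 point per tagged culture, grouped by genotype, with bars for the mean and its SD (n = 3, and n = 2 for Dmp1KO; lower error bars end at 0). Igfbp5 and Ccl2 were lowest in Dmp1KO, while Sparc, Serpinf1 and Wnt4 had their highest mean in Dmp1KO/Fgf23cKO.

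In Fgf23cKO members, 155 genes were higher (1.5% of those tested) and 229 lower (2.22%) than in WT. Without the Schwann-like members, 82 were higher (0.837%) and 62 lower (0.633%), from a fit in which Fgf23cKO replicate 2 had under 10 cells and dropped out. Leaving out Fgf23cKO replicate 3 raised the total from 384 to 723, and leaving out a WT culture lowered it to between 91 and 136. The count thus moved more with single cultures than it differed between these settings.

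Named changes were few. Lars2, the mitochondrial leucyl-tRNA synthetase, rose from 121 ± 9.79 to 545 ± 49.7 CPM (2.16 ± 0.30, adjusted p = 0.00797), and by 1.09 on the log2 scale in contractile cells. Ifi27l2a, an interferon-induced gene, fell (-2.77 ± 0.30, adjusted p = 0.00288), a call kept without the Schwann-like cells (-2.39, adjusted p = 0.0167) and lost without macrophage-rich members (-0.75, adjusted p = 0.576). Ccl19, a lymphocyte chemokine, was at 0 in all 3 cultures (at least 48.5-fold lower). Zmat4, a zinc-finger gene, went from 83.0 ± 29.8 CPM to 0 (at least 76.4-fold lower). In the FGF receptor list, Fgfr3 (-1.68, adjusted p = 0.0438) and Egr1 (52.5, 73.4 and 106 CPM, -1.72, adjusted p = 0.0512) fell and Fgf2 rose (106, 121 and 116 CPM, 1.17, adjusted p = 0.0201), which made 2 of 21 genes lower and 1 higher, against 2.22% and 1.5% of all genes. The rise of Fgf2 was absent without the Schwann-like cells (0.07, adjusted p = 0.967), the fall of Egr1 was then not called (adjusted p = 0.219), and Fgfr3 stayed called (-1.79). Among the genes with the largest rises, several lay in the Schwann-like cells: Clstn2 was at 398 CPM in the Schwann-like members of Fgf23cKO against 76.5 CPM in those of WT, Tmeff2 at 464 against 76.5, Il1rapl1 at 353 against 45.9 and Sema3c at 191 against 7.65. Pcdh9, a protocadherin, and Megf10, a phagocytic receptor gene, were at 35.2 and 13.7 CPM in the fibroblastic members of WT and at 296 and 177 CPM in those of Fgf23cKO. Without the Schwann-like cells Pcdh9 stayed called (3.58, adjusted p = 0.0582) and Megf10 did not (2.40, adjusted p = 0.105), and without macrophage-rich members Pcdh9 was not called (1.97, adjusted p = 0.173).

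The inhibitory SMAD genes Smad6 (0.66, adjusted p = 0.0649) and Smad7 (1.01, adjusted p = 0.0272), which damp BMP and TGF-beta signals, were the only calls among 27 WNT, BMP and TGF-beta genes, against 1.5% higher and 2.22% lower of all genes, and both calls were lost without the Schwann-like cells. Of 33 matrix genes, 2 fell (Sulf1 and Tnc), of 10 cell cycle genes 2 fell (Ccnb2 and Top2a) and of 15 contractile genes 1 fell (Mylk). Each of these falls lost its call without the Schwann-like cells, where 1 of 33 matrix genes was higher (Timp3) and 0 of 8 cell cycle and 0 of 15 contractile genes were called. Of all genes in that setting, 0.837% were higher and 0.633% lower. None of the 25 osteoblast commitment genes was called. Igfbp5 was lower without passing in all members (-1.32, adjusted p = 0.175) and passed without the Schwann-like cells (-3.97, adjusted p = 0.00961, with 2 Fgf23cKO cultures). Replicate 2, whose fibroblastic members held more Igfbp5 than those 2 cultures, was not in that fit.

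In Dmp1KO/Fgf23cKO members, 494 genes were higher (4.79% of those tested) and 681 lower (6.6%) than in WT. Leaving out 1 WT culture lowered the total from 1175 to between 518 and 626. Without the Schwann-like members, 422 were higher (4.31%) and 490.0 lower (5%), and without Schwann-cell or macrophage RNA, 312 were higher (3.58%) and 356 lower (4.08%), the last from 2 cultures of this genotype. In each of these settings and in the one without macrophage RNA only, 149 higher and 202 lower genes were called with the same sign. Of 25 osteoblast commitment genes, 6 rose and 0 fell, but 3 of the 6 (Sparc, Col1a1 and Col1a2) belong to the stromal sum of the rule, so nothing is read from that count. Among the 19 tested genes of the list outside the rule, 3 rose (Alpl, Slc20a2 and Pth1r) and 0 fell, with a median of 0.58 against 0.00 over all genes. Without Schwann-cell or macrophage RNA, 3 of 17 rose and 1 fell, with a median of 0.34.

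Sparc was at 9433, 6854 and 4694 CPM in Dmp1KO/Fgf23cKO, above each of the WT values given above (1.42 ± 0.23, adjusted p = 0.00764). The log2 fold change was 1.38 without Schwann-cell or macrophage RNA and 1.01 in contractile cells. Col1a1 was at 2543, 2771 and 5117 CPM in WT and 9739.9, 8384 and 6703 CPM in Dmp1KO/Fgf23cKO (1.25 ± 0.35, adjusted p = 0.0582), while in contractile cells its fold change was -0.00. Both genes are part of the stromal sum of the rule. Outside the rule, Pth1r, the parathyroid hormone receptor, was at 211, 147 and 159 CPM in WT and 306, 373 and 380.1 CPM in Dmp1KO/Fgf23cKO (1.03 ± 0.22, adjusted p = 0.0236). Serpinf1, which encodes the secreted factor PEDF, whose loss causes a brittle bone disease, was at 263, 185 and 316 CPM in WT and 926, 723 and 444 CPM in Dmp1KO/Fgf23cKO (1.45 ± 0.29, adjusted p = 0.0175). The groups did not overlap for any of these 4 genes. The same held for 1062 of the 1175 genes called, counting those with at least 20 CPM in the higher group. Nothing further is read from it. Alpl rose from 501, 477 and 475 CPM to 611, 994 and 845 CPM (0.75, adjusted p = 0.046), but its call was lost without macrophage-rich members (0.52, adjusted p = 0.157) and without both kinds (0.34, adjusted p = 0.331). Runx2 and Sp7, the master factors of the lineage, were not called.

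Of 33 matrix genes, 5 rose and 0 fell, against 4.79% and 6.6% of all genes, and without Schwann-cell or macrophage RNA 6 rose and 3 fell, against 3.58% and 4.08%. Col6a1, a chain of the pericellular collagen VI, was at 469, 387 and 451 CPM in WT and 789.7, 899 and 706 CPM (0.87, adjusted p = 0.0221), and Col5a1, which starts collagen fibrils, rose by 1.04 (adjusted p = 0.0302). Comp, a matrix protein of cartilage and tendon, went from 47.2, 4.20 and 15.1 CPM to 169, 136 and 101 CPM (2.61 ± 0.65, adjusted p = 0.0383). Wnt4, a WNT ligand, was near the detection limit in WT (0, 4.20 and 6.30 CPM) and at 53.4, 159 and 33.7 CPM in Dmp1KO/Fgf23cKO (4.41 ± 1.12, adjusted p = 0.0411). It was the gene with the largest rise among those named by size, and its call was lost in several of the fits without 1 culture. Also on that side were Adamtsl3, a secreted ADAMTS-like matrix protein (5.51 ± 6.14 to 69.0 ± 10.3 CPM, 3.41 ± 0.56, adjusted p = 0.00818), Ptgs2, the inducible cyclooxygenase (16.0 ± 10.4 to 126 ± 59.0 CPM), Panx3, a channel of osteoblasts and chondrocytes (3.31), and Rbfox1, Cdsn, Car12, Mest and Aqp1. Calls lost without macrophage-rich members were those of Panx3 (adjusted p = 0.186), Cdsn (adjusted p = 0.101), Car12 (adjusted p = 0.108) and Aqp1 (adjusted p = 0.332). Adamtsl3, Ptgs2, Rbfox1 and Mest stayed called there.

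Pappa, a gene of the rule whose level depends in part on the selection, was at 966, 881 and 1857 CPM (1.61 ± 0.31, adjusted p = 0.0155), above all WT cultures, and was called in every alternative run. Igfbp5, at the values given above, had a log2 fold change of -1.88 ± 0.47 (adjusted p = 0.0399), and -2.21 without Schwann-cell or macrophage RNA. Its difference between Dmp1KO/Fgf23cKO and Dmp1KO did not pass in all members (3.45, adjusted p = 0.189). In the FGF receptor list, Phlda1 fell (51.6, 42.4 and 20.2 CPM, -1.93 ± 0.32, adjusted p = 0.00808) under every alternative run. Etv1 (-1.49, adjusted p = 0.077) and Fgf2 (-1.06, adjusted p = 0.0211) also fell, and Fgf7, a ligand made by fibroblasts, rose (0.88, adjusted p = 0.0541). The other 17 of the 21 genes were not called, against 6.6% lower and 4.79% higher of all genes. Of the called genes of this list, Phlda1 alone stayed called in every setting that left out members with Schwann-cell or macrophage RNA.

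Wif1 and Ccl2, low in Dmp1KO, were at 81.5, 88.5 and 30.4 and 168, 117 and 114 CPM here, and Fstl1 was at 511, 625 and 565 CPM (-0.55, adjusted p = 0.116). Neither Wif1 nor Ccl2 was called against WT. Of 10 cell cycle genes, 4 fell, against 6.6% of all genes, with a median of -1.12, among them Mki67 (41.8, 21.0 and 18.9 CPM in WT, 6.31, 0 and 0 CPM in Dmp1KO/Fgf23cKO, -3.40, adjusted p = 0.0613) and the topoisomerase gene Top2a (-2.47, adjusted p = 0.0327). Without macrophage-rich members only 2 of the list could be tested, Mki67 not among them, and 0 were called. Smad6 (0.74) and Smad7 (0.60) rose in all members, but neither stayed called in every setting that left out Schwann-cell or macrophage RNA. Tgfbi, a TGF-beta-induced matrix protein gene, fell (-2.89) but was not called without the Schwann-like cells (adjusted p = 0.119). Of the 10 largest falls, 9 were genes of the Schwann-like members, such as Gap43 (at least 389-fold lower), Stc2 (at least 94.4-fold), Gad2 and Ntm. Zmat4 was at 83.0 ± 29.8 CPM in WT and 0.383 ± 0.663 CPM in Dmp1KO/Fgf23cKO, which rests on 2 UMIs, and was called in every setting.

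**Figure D5:**
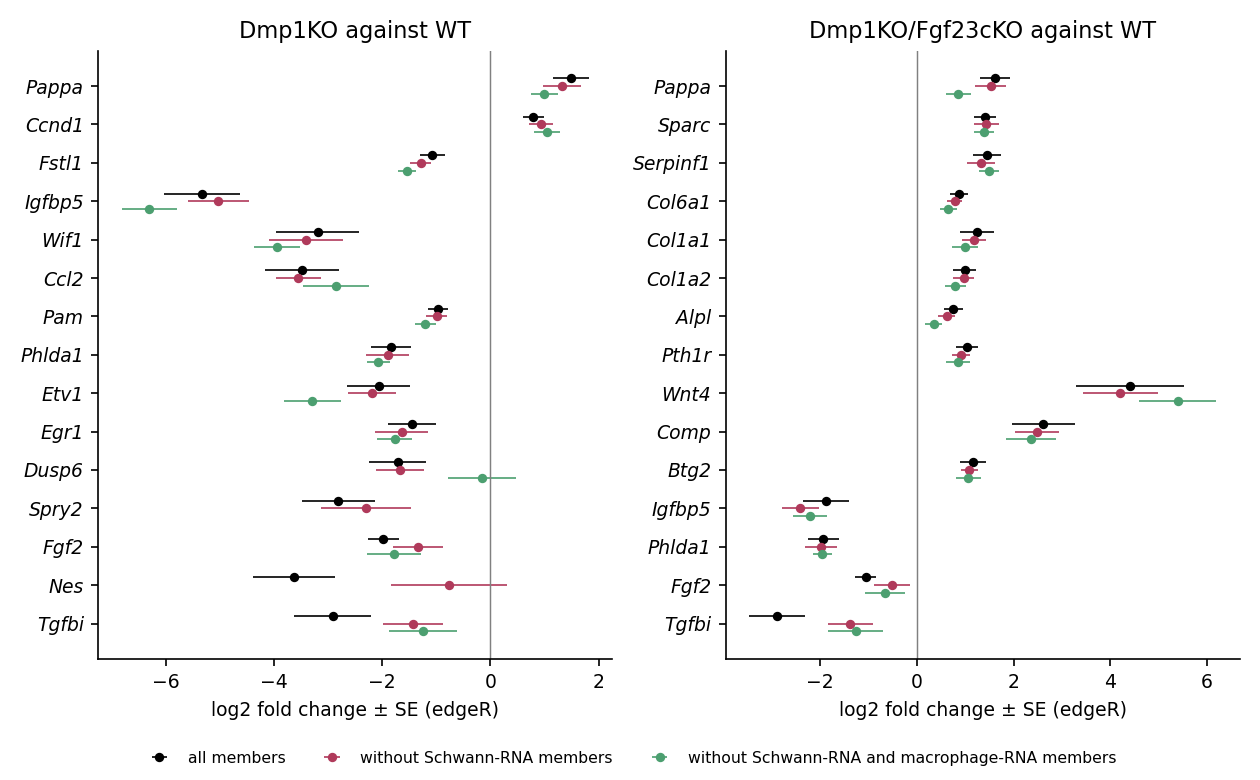
Log2 fold changes against WT with their SE (x axis) of named genes (y axis) in all members, in members without Schwann-cell RNA, and in members with neither Schwann-cell nor macrophage RNA, for Dmp1KO and for Dmp1KO/Fgf23cKO, with no point where a gene was not tested. Igfbp5 lies at -5.33, -5.02 and -6.30 in Dmp1KO, while Dusp6 moves from -1.71 to -0.15.

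The comparison of Dmp1KO/Fgf23cKO with Dmp1KO asks what removing Fgf23 changed when Dmp1 was absent. Of 10320.0 genes, 1 rose and 1 fell (0.00969% each). Plxna2, a semaphorin receptor, went from 63.8 ± 14.8 to 285 ± 54.9 CPM (2.15 ± 0.28, adjusted p = 0.0413). Gm10076, a predicted gene, went from 2526 ± 193 to 995 ± 102 CPM (-1.34 ± 0.17, adjusted p = 0.0413, -1.14 in contractile cells). Both calls were lost with a replicate block and also without WT replicate 2, where 0 genes were called. DESeq2 on the same sums called 72 higher and 99 lower, so the count depends on the tool. Without the Schwann-like members, 2 rose and 2 fell (0.0204% each), with Ccl2 added (3.07, adjusted p = 0.0149) and Mmp12, a macrophage metalloelastase, lower.

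Without members with Schwann-cell or macrophage RNA, 85 genes rose (0.974%) and 20 fell (0.229%). Igfbp5, Wif1 and Ccl2, lower in Dmp1KO than in WT, were among those that rose, whereas Fstl1 was not called (0.70, adjusted p = 0.12). Igfbp5 was 4.09 higher on the log2 scale (adjusted p = 0.0143), against 3.45 and an adjusted p of 0.189 in all members. Wif1 was 4.14 higher (adjusted p = 0.00287), and Ccl2 2.85 (adjusted p = 0.0702). Cxcl12, a gene of the rule whose level depends in part on the selection, and not called in Dmp1KO against WT in all members, was at 2.06 (adjusted p = 0.0196). For Cxcl12 all members had given 0.95 (adjusted p = 0.812), and contractile cells 3.15. Wnt4, Comp, Serpinf1, Pparg and Adipoq also rose in this setting. This selection of cells was added after the data had been seen, and each side rests on 2 cultures. The culture that dropped out was Dmp1KO/Fgf23cKO replicate 3. In all members it was the lowest culture of its genotype for Wif1, Ccl2, Wnt4, Comp, Serpinf1 and Adipoq, and the highest for Igfbp5.

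Whether these changes were particular to the fibroblastic cells was tested with a class by genotype term against the contractile cells of the same cultures, with the culture as a block. Of 10844 genes, 0 were called by edgeR in each of the 4 comparisons (0% each), and an unadjusted p under 0.05 was reached by 668 genes for Dmp1KO against WT, 696 for Fgf23cKO against WT, 538 for Dmp1KO/Fgf23cKO against WT and 520.0 for Dmp1KO/Fgf23cKO against Dmp1KO. The smallest p for Dmp1KO against WT belonged to Fth1, the ferritin heavy chain (difference of log2 fold changes -1.73, adjusted p = 0.179), and Col15a1, a basement membrane collagen, came next (-4.82, adjusted p = 0.357). Col15a1 led in the comparison of Dmp1KO/Fgf23cKO with Dmp1KO (4.82, adjusted p = 0.145), and Cdkn2b, a cell cycle inhibitor (-2.31, adjusted p = 0.146), and Timp1, a metalloproteinase inhibitor (-1.70, adjusted p = 0.146), led for Fgf23cKO. The count depended on the reference. With all other stromal cells, contractile and mature together, in place of the contractile cells, 11428 genes were tested, and 382 (3.34%) were called for Dmp1KO against WT, 12 (0.105%) for Fgf23cKO against WT, 22 (0.193%) for Dmp1KO/Fgf23cKO against WT and 2 (0.0175%) for Dmp1KO/Fgf23cKO against Dmp1KO. This reference differed in make-up between genotypes. Mature cells were 30 of 51, 17 of 29 and 49 of 70 of its cells in the WT cultures. In the Dmp1KO cultures they were 7 of 42 and 12 of 59. The part of this difference in the calls was not tested. Without cells with macrophage RNA in either class, 8938 genes were tested and 2 (0.0224%), 21 (0.235%) and 8 (0.0895%) were called for Dmp1KO against WT, Dmp1KO/Fgf23cKO against WT and Dmp1KO/Fgf23cKO against Dmp1KO, each with 2 cultures a genotype, WT replicate 2 and Dmp1KO/Fgf23cKO replicate 3 having dropped out. For Fgf23cKO against WT, leaving out 1 culture gave 0 to 13 calls, the most without Dmp1KO/Fgf23cKO replicate 3. A p that misses the threshold does not show that both classes changed alike.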

How the data were processed

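The authors deposited raw UMI counts per cell and gene (32285 genes and 12 sample tags) made with Cell Ranger, version and cell-calling settings not given in the sources used here, against mm10 (submitters' processing notes), from trypsin-released live cells sorted for exclusion of 7-AAD, tagged by culture with CellPlex oligos and run on a 3' droplet kit, 1 reaction per genotype. Tag multiplets had been removed by the authors before deposit, while multiplets within a culture could remain and no doublet caller was run. Counts of 15 of the 16 samples were analysed. Barcodes were shared by 0 cells within a pool and by 35 cells over 84 pairs of samples from other pools.

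From the counts, members were found by the rule of the opening, UMIs were summed over members per tagged culture with at least 10 of them, and sums were fitted with edgeR 4.0.16 in R 4.3.3 (TMM, filterByExpr, quasi-likelihood test, genotype only, all genotypes in 1 fit, Benjamini-Hochberg over all genes tested, calls at an adjusted p under 0.1). A biological coefficient of variation of 0.24 was estimated. CPM are counts scaled to a common total after TMM, except for class and list sums, which use the plain total. Summed counts give deep cells more weight. Shares were compared with exact permutation tests in Python 3.11.15 with numpy 2.4.6, and their Clopper-Pearson intervals came from scipy 1.17.1. The other tools were pandas 2.3.3, matplotlib 3.10.9 and, as an alternative, DESeq2 1.42.0. The steps were tested on simulated data.

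Genes named in the text were the genes of the rule and its markers, examples from 19 lists (269 genes), and, per comparison, the 10 called genes with the largest fold change in each direction whose cultures did not overlap and whose higher group had at least 20 CPM. Against contractile or mature cells they were the leading 15 genes of at least 100 CPM that were higher in every culture (a pseudocount of 1 CPM was added), with the fixed markers, and for the class by genotype term the genes with the smallest p. Tenm3, Acan, Gap43 and the like in the Schwann-like cells were chosen after their values were seen. Some genes that these rules select are not reported here. The members and the lists were chosen with earlier results of these data known. Alternatives were other filters, denominators, limits of the rule, a replicate block, DESeq2, added untagged samples and each culture left out. Those without members with Schwann-cell RNA (for each denominator of the share), without Schwann-cell or macrophage RNA and without members lacking a fibroblastic UMI were chosen after seeing the data. The study describes 3 mice per genotype for these cultures, while the labels tie no culture to an animal.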

Additional observations from a re-analysis of the deposited data

Results flagged for a closer look

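The samples of untagged cells, which entered no main comparison, held members with more macrophage RNA than the tagged cultures of the same genotype. The median 8-gene macrophage sum of their members was 142 UMIs per 10000 in Fgf23cKO, 56.3 in Dmp1KO and 488 in Dmp1KO/Fgf23cKO, against medians of 6.91 to 19.5 in the tagged cultures. The median cell of the untagged Dmp1KO/Fgf23cKO sample held 1219 UMIs, the lowest of all samples. In that sample members were 22.5% of the cells passing the filters, against 2.36% to 3.46% in the tagged cultures of the genotype. How far the macrophage RNA and the low depth account for this share was not tested.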

How the results depend on the processing

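The limits are few cultures, a shallow WT pool and 1 reaction per genotype. The direction of the Dmp1KO share against WT was kept in all alternatives run. The difference of Dmp1KO/Fgf23cKO to Dmp1KO was -9.522 percentage points with stromal cells as denominator and -10.29 with this denominator and no Schwann-cell RNA. That of Dmp1KO/Fgf23cKO to WT turned positive with untagged samples (2.833), no filter on cells (1.575), thinning to 1500 UMIs (0.1685), a stromal sum of at least 50 (0.4061) and no Schwann-cell RNA (0.1322). That of Fgf23cKO to WT turned negative with the stromal denominator (-11.16, and -17.29 without Schwann-cell RNA) and without Schwann-cell RNA (-0.2311) or without Schwann-cell or macrophage RNA (-0.07412). Leaving out 1 culture gave -2.869 to -1.728 for Dmp1KO against WT, 0.1306 to 1.272 for Fgf23cKO, -1.004 to 0.1377 for Dmp1KO/Fgf23cKO (positive without WT replicate 3) and 1.533 to 2.079 for Dmp1KO/Fgf23cKO against Dmp1KO.

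Counts of called genes follow in the order Dmp1KO, Fgf23cKO and Dmp1KO/Fgf23cKO against WT and Dmp1KO/Fgf23cKO against Dmp1KO, from 1220.0, 384, 1175 and 2. At an adjusted p under 0.05 the first 3 were 634, 171 and 644. With untagged samples they were 1866, 946, 1864 and 135, with a stromal sum of at least 50 they were 461, 129, 574 and 8, and with the fibroblastic sum at least 2 times the contractile sum 382, 66, 463 and 1. Without macrophage RNA the last 3 were 218, 595 and 22, without Schwann-cell RNA the Fgf23cKO count was 144 and the last 4, and without either kind the counts were 631, 668 (Dmp1KO/Fgf23cKO against WT) and 105. Sums of at least 20 cells gave 1968 for Dmp1KO and 155 for the last, no filter on low counts 957 for Fgf23cKO and 431 for the last, and DESeq2 171 for the last. Leaving out 1 culture gave 165 to 1606, 91 to 723, 518 to 1509 and 0 to 32. The low end for Dmp1KO came without either of its cultures (165 and 175), where the remaining one is taken to vary like the other groups. The cause of these shifts was not tested.

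Replicate numbers did not pair the cultures. Deviations of same-numbered cultures from their group means correlated at -0.05 to 0.17. A replicate block gave 1099, 241, 983 and 0 calls. For the class by genotype term, all other stromal cells as the reference gave 382, 12, 22 and 2 calls, leaving out cells with macrophage RNA gave 2, 21 and 8 for Dmp1KO, Dmp1KO/Fgf23cKO and the last comparison, no Schwann-cell RNA gave 1 for Fgf23cKO, and leaving out 1 culture gave 0 to 3, 0 to 13, 0 to 1 and 0 to 2.

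Among named genes of Dmp1KO against WT, 1040.0 of 1374 alternative values kept direction and call, 324 lost the call and 10 reversed. Without Schwann-cell or macrophage RNA and without macrophage RNA respectively, the reversed values were 0.513 and 0.520 for Adgre1, 0.411 and 0.521 for Apoe, 0.843 and 0.946 for Cd36 and 1.113 and 0.832 for Igf1. Atf3 was 0.642 without either kind, and Mcpt8 -0.666 with the fibroblastic sum at least 2 times the contractile sum. In Dmp1KO/Fgf23cKO against WT, 986 of 1200 values were kept, 211 lost the call and 3 reversed (Atf3 0.051 without Schwann-cell RNA and 0.999 without either kind, Cd36 0.008 without macrophage RNA). In Fgf23cKO against WT, 212 of 640.0 lost the call and 0 reversed. For the 2 named genes of Dmp1KO/Fgf23cKO against Dmp1KO, 32 of 46 values were kept, 14 lost the call and 0 reversed.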

Other observations

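Adipoq, the adipocyte hormone adiponectin, was carried by few members and varied by more than the genotypes did. It was at 38.1, 23.1 and 20.2 CPM in the WT cultures, 79.8, 617 and 0 CPM in Fgf23cKO, 4.21 and 41.4 CPM in Dmp1KO and 91.8, 195 and 2.25 CPM in Dmp1KO/Fgf23cKO, and no comparison called it in all members. In the 138 deep members it had a UMI in 10.9%, with up to 30 of the thinned UMIs in a single cell. The summed adipocyte list was led by Apoe, a gene that macrophages also express, which made up 68.8% of it. Pericyte genes (6 genes) summed to 27.9 to 95.1 CPM in the members of the tagged cultures, against 1.63 to 3.85 CPM in cells with little stromal RNA. Rgs5, a pericyte gene, had a UMI in 0.725% of the deep members. The mature osteocyte list had 2 of 6 genes at 0 in tagged members, Sost and Fgf23, and Pdpn made up 80.3% of its sum. Osteoclast genes (8 genes) lay between 132 and 427 CPM, with 2 of the 8 at 0, Ocstamp and Calcr.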
